A study of Mus musculus with 7 samples.

Results

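The 42 genes described here are interferon-induced antiviral genes of the mouse, taken by symbol from a list. They cover the IFIT proteins and the ISG15 system, the OAS, Mx and PKR effectors, the RNA sensors, the STAT and IRF factors, restriction factors, and the immunoproteasome. All 42 were found among the 23282 entries of the count table, and 39 of them were among the 13122 genes with enough counts to be tested.

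Expression was measured in tumour cells sorted by FACS as tdTomato-positive from adult C57BL/6 mice with glioblastoma. The WT group held 3 libraries, and the Fyn-KO group, whose genotype lacks the Src family kinase Fyn, held 4. Each library was made with the Lexogen QuantSeq 3' kit, which reads a tag near the 3′ end of polyadenylated RNA. The mice were sorted independently according to the series design, and the sources used here do not say what drives tdTomato, how the tumours arose or in which cells Fyn was lost.

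Interferons are secreted in response to viral nucleic acid and bind receptors that signal through JAK kinases. Type I interferon activates a complex with STAT2 and IRF9 that binds the interferon-stimulated response element (ISRE) of target promoters, whereas interferon gamma acts at the gamma-activated site (GAS) and through IRF1. The induced proteins detect viral RNA, block its translation, degrade it or process antigen, and in brain tumours they are made both by tumour cells and by the microglia and macrophages among them.

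Promoter sequences are shown for the members that passed the test and matched an ISRE, and for Slfn5, which has a match and nearly the same level in both groups. They are RefSeq sequences on GRCm38.p6, written 5′ to 3′ on the strand of the gene and lying wholly before the RefSeq start site used. The Slfn5 stretch lies inside the gene as GENCODE M21 places it (chr11:82951349-82964840). Capitals mark ISRE matches, searched as TTTCNNTTTC and, for the other strand, as GAAANNGAAA. Neighbouring matches can overlap, and then form 1 run of capitals.
Ifit1, chr19:34640770-34640828, plus strand: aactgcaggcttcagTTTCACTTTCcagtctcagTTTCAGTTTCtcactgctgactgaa
Ifit3, chr19:34583358-34583431, plus strand: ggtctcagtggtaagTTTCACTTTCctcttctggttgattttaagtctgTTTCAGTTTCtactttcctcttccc
Isg15, chr4:156200860-156200911, minus strand: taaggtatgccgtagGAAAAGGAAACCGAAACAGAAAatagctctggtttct
Oas1a, chr5:120907526-120907560, minus strand: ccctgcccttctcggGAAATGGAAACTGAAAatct
Trim30a, chr7:104465205-104465244, minus strand: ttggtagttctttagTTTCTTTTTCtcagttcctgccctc
Slfn5, chr11:82951932-82951971, plus strand: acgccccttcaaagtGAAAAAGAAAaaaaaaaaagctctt
Ifit1 and Ifit3 each carry 2 separate matches that share the same pair of letter runs. The 3 matches of Isg15 overlap, and so do the 2 of Oas1a. A match is a description of these letters and not a shown binding site.

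The libraries held 8976745 to 16371244 counts. Fyn itself, measured at its 3′ end, was 1039, 719.9 and 1604 counts per 1000000 (CPM) in WT and 74.5 to 190 CPM in Fyn-KO, with a log2 fold change of -3.43 ± 0.51 (Fyn-KO over WT, ± approximate SE; edgeR quasi-likelihood test, Benjamini-Hochberg adjusted p = 0.0121). The sources used here do not say where the deletion lies relative to that tag, so the value checks the labels only if the tag depends on it. The groups also differed in cell markers. Of 10 glioma and oligodendrocyte lineage markers, 9 were lower in Fyn-KO (3.51% of all genes tested). The summed level of the 10 was 13232 to 28645 CPM in WT and 225 to 1313 in Fyn-KO. The defining markers of the labelled tumour cells were thus low in the Fyn-KO libraries (Sox10 was at 11.9 to 157 CPM). The 10 markers of steroid-producing cells summed to 96.1 to 480 CPM in WT and 24465 to 29273 in Fyn-KO, with Nr5a1, which marks the steroid-producing lineage, at 0 in every WT library. Genes detected numbered 7723 to 9924 in WT and 13535 to 14548 in Fyn-KO. Genotype, cell makeup and the number of genes detected cannot be told apart here, and in sorted bulk samples fewer cells of a type cannot be told apart from less RNA per cell. No comparison could be made without these libraries, since all 4 Fyn-KO libraries carry the steroid markers.

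Across the 39 tested members, 5 were lower in Fyn-KO (Ifit1, Ifit3, Isg15, Oas1a and Rtp4) and 2 were higher (Trim30a and Sp100). Of all genes tested, 3.51% were lower and 19.0% were higher. The median log2 fold change was -1.48 over the members and 0.45 over all genes, and 32 of the 39 members had a negative value. The other 32 members did not pass in either direction. In CPM, 7 members lay below all WT libraries in every Fyn-KO library (7.32% of all genes tested), namely the 5 and Usp18 and Lgals3bp, and 2 lay above (30.1% of all genes tested). Without WT replicate 3 the number below was 16 (13.8% of all genes tested). The number above was 4 without WT replicate 1, WT replicate 2 or Fyn-KO replicate 1 (36.5%, 45.5% and 31.6% of all genes tested).

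**Figure D1:**
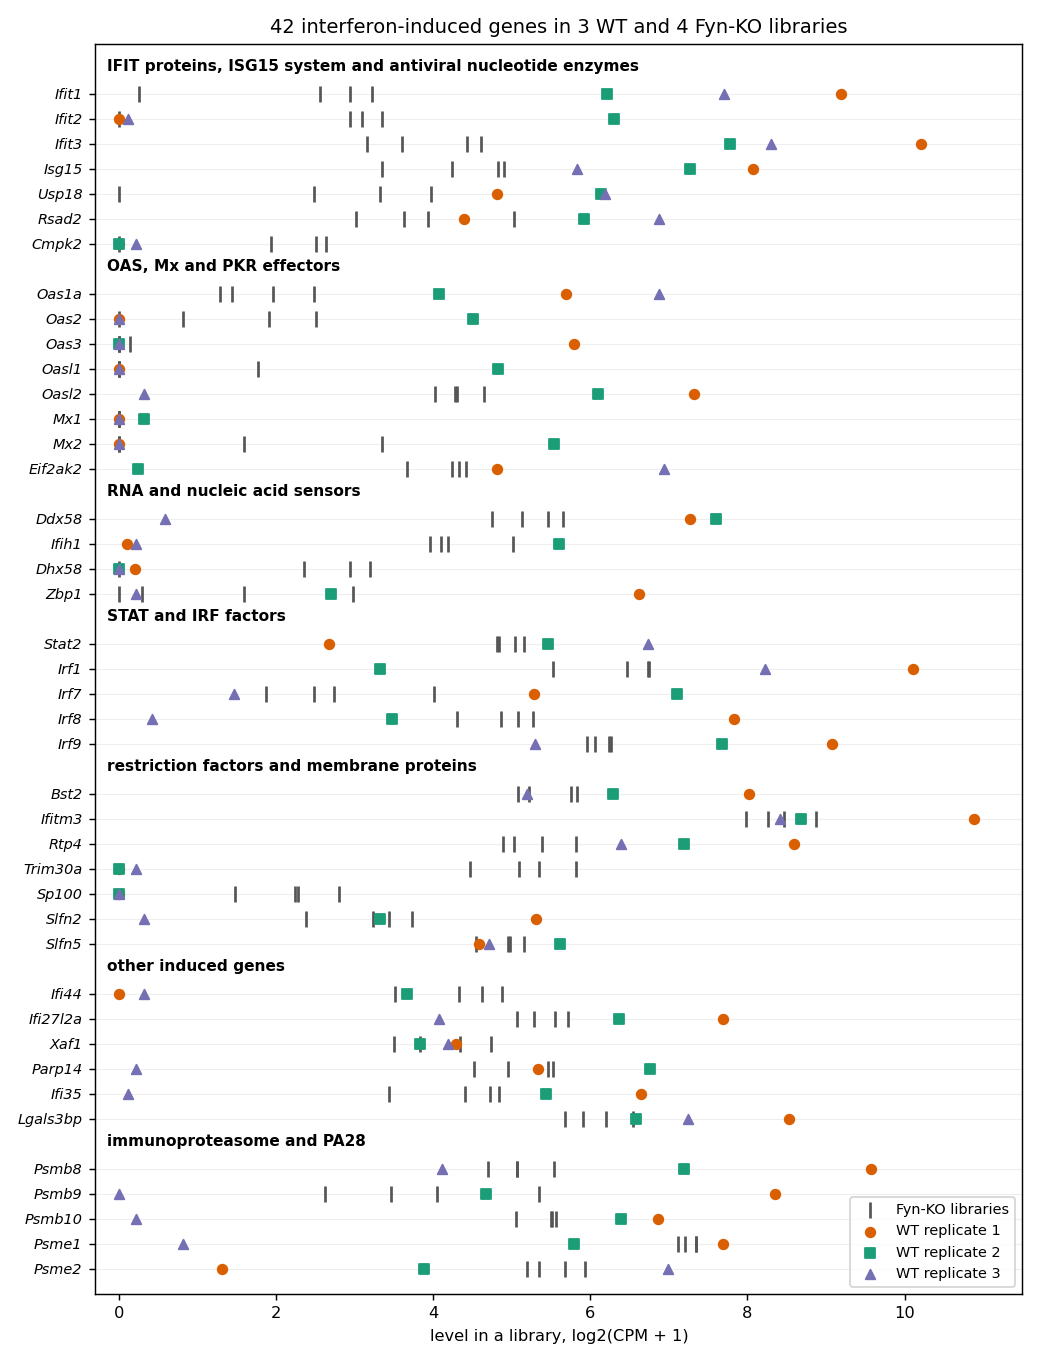
Level of each of the 42 members in each library, as log2(CPM + 1), grouped by role. Bars are the 4 Fyn-KO libraries and coloured symbols are the 3 WT libraries. The Fyn-KO bars mostly sit close together, while the WT symbols spread from 0 to about the right edge, with WT replicate 3 often farthest to the left.

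The lower calls depended on which library was in the fit. Without any 1 of the Fyn-KO libraries 2 members were lower, Ifit1 and Ifit3, and 2.03%, 1.99%, 2.85% and 2.1% of all genes tested were lower without Fyn-KO replicates 1, 2, 3 and 4. Without WT replicate 1 there were 3 lower members, Oas1a being the other (5.17% of all genes). Without WT replicate 2 there were 9, among them Irf1, Ifitm3, Lgals3bp and Psmb8 (6.0% of all genes). Without WT replicate 3 there were 10, among them Oasl2, Ddx58, Irf7, Irf9 and Psmb8 (5.08% of all genes). Higher members numbered 4 without WT replicate 2, Ifih1 and Ifi44 being added (32.8% of all genes). Ifit1 and Ifit3 were called with all 7 libraries and in all 7 fits with 1 library left out. Among the 29 members detected in both groups, only Ifit3 was lower (2.26% of the genes so detected), and their median was -1.27 against -0.21 over all such genes.

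IFIT proteins bind viral RNA that lacks the host cap marks and block its translation, and 2 of the 3 measured here were lower in Fyn-KO. Ifit1 (chr19:34640871-34650009, plus strand, GRCm38) was 585, 73.0 and 207 CPM in WT replicates 1, 2 and 3 and 6.71, 0.192, 4.93 and 8.35 in Fyn-KO replicates 1 to 4. Every Fyn-KO library lay below every WT library, and Fyn-KO replicate 2 held only 2 counts. The means were 288 ± 265 CPM (SD, n = 3) and 5.05 ± 3.53 CPM (SD, n = 4), 57.1-fold lower in Fyn-KO, and the fitted log2 fold change was -5.94 ± 1.29 (edgeR quasi-likelihood adjusted p = 0.0130). Ifit3 (chr19:34583531-34588731, plus strand), its neighbour, was 1186, 218 and 314 CPM in WT and 11.2, 23.5, 20.6 and 7.91 in Fyn-KO. Here too the groups did not overlap, and Ifit3 was 36.3-fold lower in Fyn-KO by the means (log2 fold change -5.24 ± 0.79, edgeR adjusted p = 0.0121). WT replicate 1 was the highest library for both genes, and without it the log2 fold changes were -5.07 for Ifit1 (adjusted p = 0.0311) and -4.24 for Ifit3 (adjusted p = 0.0145).

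Ifit2 showed another pattern, at 77.6 CPM in WT replicate 2, 1 count in WT replicate 3 and none in WT replicate 1, against 0 to 9.23 CPM in Fyn-KO. Tags of Ifit3 and its near-identical copy Ifit3b can be assigned to either gene. Ifit3b was 239.6, 92.3 and 3.11 CPM in WT and 0 to 3.72 in Fyn-KO (edgeR adjusted p = 0.0696).

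ISG15 is a ubiquitin-like protein that is joined to other proteins after interferon, and USP18 removes it. Isg15 (chr4:156199424-156200818, minus strand) was 268, 153 and 55.7 CPM in WT and 28.9, 9.23, 18.0 and 27.4 in Fyn-KO. Even the lowest WT library lay above every Fyn-KO library. Isg15 was 7.62-fold lower in Fyn-KO (log2 fold change -2.93 ± 0.80, edgeR adjusted p = 0.0310). The call was lost without WT replicate 1 (-2.28, adjusted p = 0.0611) and without each of the Fyn-KO libraries (adjusted p = 0.0736, 0.0884, 0.0866 and 0.0721 for replicates 1 to 4). Usp18 was 27.1, 69.6 and 72.0 CPM in WT and 9.06, 4.62, 14.8 and 0 in Fyn-KO, again without overlap but short of the threshold (edgeR adjusted p = 0.263).

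Among the antiviral nucleotide enzymes, Rsad2 encodes viperin, which makes a chain-terminating nucleotide, and Cmpk2, its neighbour on the chromosome, supplies the triphosphate. Rsad2 was 19.96, 59.4 and 117 CPM in WT and 7.13 to 31.5 in Fyn-KO (log2 fold change -2.19 ± 1.08, edgeR adjusted p = 0.213). WT replicate 1 fell inside the Fyn-KO range. Cmpk2 had 2 counts in WT replicate 3 and none in the other WT libraries, and stood at 0 to 5.19 CPM in Fyn-KO (adjusted p = 0.116).

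The OAS enzymes sense double-stranded RNA and make the 2-5A messenger that activates RNase L. Of the 5 OAS and OAS-like members, Oas1a was lower in Fyn-KO. Oas1a (chr5:120896256-120907521, minus strand) was 50.5, 15.9 and 116 CPM in WT and 1.70, 1.44, 4.597 and 2.90 in Fyn-KO. It was highest in WT replicate 3, and its lowest WT library was still above every Fyn-KO library. The means were 60.8 ± 50.9 CPM (SD, n = 3) and 2.66 ± 1.44 CPM (SD, n = 4), 22.9-fold lower in Fyn-KO, with a log2 fold change of -4.75 ± 1.25 (edgeR adjusted p = 0.0267). The call was lost without each of the Fyn-KO libraries (adjusted p = 0.105, 0.103, 0.0614 and 0.0914) and was kept without WT replicate 3, the value then being -3.57 (adjusted p = 0.0334). Tags of Oas1a and the other close copies of the Oas1 family can be assigned to either.

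Of the other OAS members, Oas2, Oas3 and Oasl1 were each found in 1 WT library alone. Oas3 was 54.3 CPM in WT replicate 1, with no count in the other WT libraries and 1 count in Fyn-KO. Oasl1 and Oas2 were found in WT replicate 2 alone among WT libraries, at 27.4 and 21.7 CPM, and reached 2.40 and 4.71 CPM in Fyn-KO. Oasl2 was 158, 67.3 and 0.252 CPM in WT and 15.2 to 24.0 in Fyn-KO. WT replicate 3 lay below and the other WT libraries above all Fyn-KO libraries, and the log2 fold change was -1.93 ± 1.45 (edgeR adjusted p = 0.448), or -2.51 without WT replicate 3 (adjusted p = 0.0263).

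Mx proteins are dynamin-like GTPases that trap viral nucleocapsids, and C57BL/6 mice carry a defective Mx1. Mx1 had 4 counts in WT replicate 2 and none elsewhere, and was not tested. Mx2 was 45.4 CPM in WT replicate 2, at 0 in the other WT libraries, and 9.16, 2.02, 0 and 0 CPM in Fyn-KO, so the value of 1 library set its fitted fold change (-2.19 ± 2.72, edgeR adjusted p = 0.681, and 7.77 without WT replicate 2). Eif2ak2 encodes PKR, the kinase that halts translation when it binds double-stranded RNA. Its levels were 27.2, 0.183 and 121 CPM in WT and 11.7 to 20.3 in Fyn-KO (log2 fold change -1.89 ± 1.58, edgeR adjusted p = 0.509). The WT libraries lay on both sides of the Fyn-KO range.

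None of the 4 nucleic acid sensors passed the test with all libraries. Ddx58 encodes RIG-I, which binds viral RNA with 5′ triphosphates, and was 154, 194 and 0.504 CPM in WT and 25.8 to 49.1 in Fyn-KO (log2 fold change -1.46 ± 1.32, edgeR adjusted p = 0.546). In WT replicates 1 and 2 it lay above every Fyn-KO library, and without WT replicate 3 it was lower in Fyn-KO (-2.04, adjusted p = 0.0209). Ifih1 encodes MDA5, which binds long double-stranded RNA, and was 0.0783, 47.8 and 0.168 CPM in WT and 31.3, 17.3, 16.1 and 14.6 in Fyn-KO (0.57 ± 1.83, adjusted p = 0.890). When its high WT library, replicate 2, was left out, Ifih1 was higher in Fyn-KO (log2 fold change 6.94, adjusted p = 0.0046). Dhx58 encodes LGP2, a helper of both, and had 2 counts in WT, and its Fyn-KO libraries were at 0, 4.14, 8.21 and 6.68 CPM. The pooled counts gave a ratio of 96.4 (95% exact interval 26.3 to 802, counting error only), and the test with all libraries did not call it (edgeR adjusted p = 0.0790). It was higher in Fyn-KO without Fyn-KO replicate 1 (adjusted p = 0.0288). Zbp1, a sensor of Z-form nucleic acid, was 97.5, 5.497 and 0.168 CPM in WT and 0 to 6.93 in Fyn-KO (log2 fold change -3.94 ± 2.27, adjusted p = 0.296). WT replicate 1 was the high library, and without it the log2 fold change was -0.10 (adjusted p = 0.981).

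The summed level of the 4 sensors was 251 and 247 CPM in WT replicates 1 and 2, 0.839 CPM in WT replicate 3, and 47.3 to 73.4 CPM in Fyn-KO. The adaptors and kinases downstream of the sensors, with 13 of 14 genes tested, held 1 higher gene, Ikbke, and 1 lower gene, Tlr3. Of all genes tested, 19.0% were higher and 3.51% were lower. Tlr3, a receptor for double-stranded RNA in endosomes, was 363, 40.7 and 141 CPM in WT and 3.45 to 18.3 in Fyn-KO (edgeR adjusted p = 0.0158). Ikbke, a kinase that activates IRF3 and IRF7, had no count in WT and 3.56 to 9.27 CPM in Fyn-KO (adjusted p = 0.0121).

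Of the 5 STAT and IRF factors none passed the test. Stat2 and Irf9 encode parts of the type I interferon complex. Stat2 was 5.40, 43.2 and 106 CPM in WT and 27.0 to 34.6 in Fyn-KO (log2 fold change -1.01 ± 1.11, edgeR adjusted p = 0.634). Irf9 was 541, 204 and 38.4 CPM in WT and 61.4 to 76.0 in Fyn-KO (-1.89 ± 0.76, adjusted p = 0.118). For both genes the Fyn-KO libraries lay inside the WT range, with WT replicate 1 at the bottom for Stat2 and at the top for Irf9. Without WT replicate 3, Irf9 was lower in Fyn-KO (-2.38, adjusted p = 0.0140), and the sign of Stat2 turned to 0.55 (adjusted p = 0.701).

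IRF1 and IRF8 are factors induced by interferon gamma, and IRF7 amplifies the type I interferon loop. Irf1 was 1099, 9.04 and 298 CPM in WT and 105, 87.3, 45.2 and 106 in Fyn-KO (log2 fold change -2.58 ± 1.15, edgeR adjusted p = 0.161). WT replicate 2 lay below every Fyn-KO library, and without it Irf1 was lower in Fyn-KO (-3.16, adjusted p = 0.0052). Irf7 was 37.9, 136 and 1.76 CPM in WT and 2.66 to 15.1 in Fyn-KO (-2.82 ± 1.40, adjusted p = 0.215). Here WT replicate 3 was the low library, and without it Irf7 was lower (-3.39, adjusted p = 0.0436). Irf8, also a lineage factor of microglia and macrophages, was 227, 10.1 and 0.336 CPM in WT and 18.8 to 37.7 in Fyn-KO (-1.44 ± 1.57, adjusted p = 0.632). Its sign turned when WT replicate 1 was left out, to 2.72 (adjusted p = 0.180).

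Among the restriction factors and membrane proteins, Rtp4 was lower and Trim30a and Sp100 were higher in Fyn-KO. Rtp4, which binds viral RNA and acts as a chaperone of membrane receptors, lies at chr16:23520291-23614222 on the plus strand. It was 384, 146 and 82.7 CPM in WT and 55.5, 40.8, 28.6 and 31.5 in Fyn-KO. The groups did not overlap, and the fold was 5.22 (log2 fold change -2.41 ± 0.68, edgeR adjusted p = 0.0355). The call was lost without WT replicate 1 (-1.58, adjusted p = 0.0877) and without each of the Fyn-KO libraries (adjusted p = 0.0702, 0.0954, 0.0974 and 0.0995).

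Trim30a, a TRIM protein that restrains NF-kappaB signalling, lies at chr7:104409025-104465193 on the minus strand. It had 0, 0 and 2 counts in WT and 374, 220, 304 and 497 counts in Fyn-KO (39.9, 21.2, 33.3 and 55.4 CPM). The ratio of the pooled counts was 756 (95% exact interval 209 to 6247, counting error only), and the edgeR adjusted p was 0.0165. It passed in 6 of the 7 fits with 1 library left out and had an adjusted p of 0.0516 without Fyn-KO replicate 1. The fitted value moved from 8.90 to 11.77 without WT replicate 3, the library with the 2 counts, and to 8.30 without WT replicate 2. Sp100, a component of PML nuclear bodies, lies at chr1:85649988-85709998 on the plus strand. It had no count in any WT library and 5.97, 3.85, 3.72 and 1.78 CPM in Fyn-KO. Against a floor of 3 counts per WT library (0.252 CPM) Sp100 was at least 15.2-fold higher in Fyn-KO (edgeR adjusted p = 0.0121, called in all 7 fits with 1 library left out). Trim30a and Sp100 had enough counts to be tested only through the Fyn-KO libraries. Neither passed under limma-voom with quality weights (limma-voom adjusted p = 0.392 for Trim30a and 0.485 for Sp100). The same held with a term for replicate number (edgeR adjusted p = 0.215 and 0.179). Both genes belong to families with near-identical copies, so that their tags can be assigned to a relative. Of 15 tested markers of microglia and macrophages, 5 were higher in Fyn-KO (19.0% of all genes tested) and 7 had a negative log2 fold change. The summed level of that list overlapped between the groups (217 to 674 CPM in WT, 454 to 506 CPM in Fyn-KO). Its part in the levels of Trim30a and Sp100 was not tested.

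The other members of this group overlapped between the groups. Ifitm3, which blocks the fusion of virus and endosome, was 1889, 410.4 and 339 CPM in WT and 252 to 466 in Fyn-KO (log2 fold change -1.38 ± 0.61, edgeR adjusted p = 0.157). WT replicate 1 stood at 4.603 times the next WT library. Bst2, or tetherin, which holds budding virions at the membrane, was 260, 77.1 and 35.7 CPM in WT and 32.9 to 55.9 in Fyn-KO (-1.48 ± 0.82, adjusted p = 0.273). Slfn5 was 23.1, 47.9 and 25.3 CPM in WT and 22.4 to 34.5 in Fyn-KO (-0.14 ± 0.88, adjusted p = 0.950). The groups overlapped, and no library was under 20 CPM. Slfn2 ran from 0.252 to 38.7 CPM in WT and from 4.23 to 12.3 CPM in Fyn-KO (adjusted p = 0.771).

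**Figure D2:**
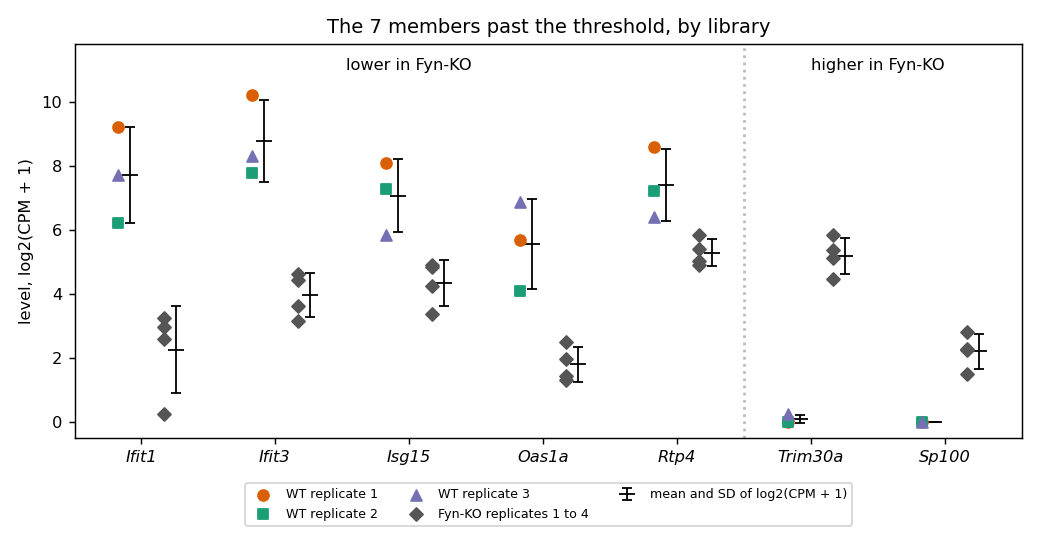
Level of the 7 members past the threshold, as log2(CPM + 1), in each WT library (coloured symbols) and each Fyn-KO library (grey diamonds), with the mean and SD of each group beside them. Ifit1, Ifit3, Isg15, Oas1a and Rtp4 lie lower in every Fyn-KO library, and Trim30a and Sp100 lie at or near 0 in every WT library.

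Of the 6 remaining induced genes none passed the test with all libraries. Lgals3bp, a secreted galectin ligand, was 369, 94.6 and 151 CPM in WT and 59.0, 72.7, 92.7 and 50.4 in Fyn-KO. The groups did not overlap, though the highest Fyn-KO and the lowest WT library were close (log2 fold change -1.65 ± 0.65, edgeR adjusted p = 0.111). Ifi27l2a, a small mitochondrial protein, was 205, 81.4 and 15.9 CPM in WT and 32.4 to 51.4 in Fyn-KO (-1.22 ± 0.90, adjusted p = 0.434). Ifi35 was 98.8, 42.1 and 0.0839 CPM in WT and 9.80 to 27.7 in Fyn-KO (-1.10 ± 1.55, adjusted p = 0.721). In both, WT replicates 1 and 2 lay above and WT replicate 3 below all Fyn-KO libraries. Parp14, an ADP-ribosyltransferase, was 39.4, 108 and 0.168 CPM in WT and 22.0 to 45.0 in Fyn-KO (-0.29 ± 1.44, adjusted p = 0.935). Ifi44 was 0, 11.7 and 0.252 CPM in WT and 10.4 to 28.3 in Fyn-KO (2.60 ± 1.89, adjusted p = 0.431), and without WT replicate 2 it was higher in Fyn-KO (6.88, adjusted p = 0.0141). Xaf1 was seen at a like level in all 7 libraries, at 13.2 to 18.6 CPM in WT and 10.3 to 25.6 in Fyn-KO (adjusted p = 0.980).

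The immunoproteasome replaces the catalytic subunits of the proteasome with PSMB8, PSMB9 and PSMB10 after interferon gamma, and PSME1 with PSME2 forms its PA28 cap. None of these 5 members passed the test with all libraries. Psmb8 was 762, 145 and 16.3 CPM in WT and 32.6, 24.9, 45.6 and 32.5 in Fyn-KO (log2 fold change -3.16 ± 1.05, edgeR adjusted p = 0.0618). WT replicate 3 lay below every Fyn-KO library. Psmb8 was lower in Fyn-KO without WT replicate 3 (-3.71, adjusted p = 0.0120) and without WT replicate 2 (-3.54, adjusted p = 0.0465), and without WT replicate 1 the value was -1.05 (adjusted p = 0.391). Psmb9 was 325, 24.6 and 0 CPM in WT and 15.6, 10.003, 5.14 and 39.5 in Fyn-KO (-2.76 ± 1.93, adjusted p = 0.410). Psmb10 was 115, 82.6 and 0.168 CPM in WT and 32.3 to 46.3 in Fyn-KO (-0.56 ± 1.41, adjusted p = 0.858). All 3 catalytic subunits thus had the same order in WT, with replicate 1 first and replicate 3 last. Of the cap genes, Psme1 had that order too and Psme2 the reverse. Psme1 was 206, 54.6 and 0.756 CPM in WT and 138 to 162 in Fyn-KO (0.84 ± 1.24, adjusted p = 0.737). Psme2 was 1.49, 13.7 and 126 CPM in WT and 35.6 to 60.2 in Fyn-KO (-0.38 ± 1.36, adjusted p = 0.904).

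Each catalytic immunoproteasome subunit was also set against the constitutive subunit that it replaces, as a ratio of tag counts within a library. Such a ratio is not scaled by length, since the method reads 1 tag per transcript end, and it is compared here across libraries only. Psmb8 over Psmb5 was 11.1, 0.484 and 0.0523 in WT and 0.119 to 0.191 in Fyn-KO. Psmb9 over Psmb6 was 1.04, 0.101 and 0 in WT and 0.0254 to 0.213 in Fyn-KO. Psmb10 over Psmb7 was 2.36, 1.53 and 0.00570 in WT and 0.215 to 0.357 in Fyn-KO. In WT replicate 1 all 3 ratios exceeded every Fyn-KO value, and in WT replicate 3 all 3 were below every Fyn-KO value. The constitutive subunits were not steady themselves, and a ratio moves with either gene of its pair. Psmb5 was 68.5, 299.6 and 311 CPM in WT and 209 to 238 in Fyn-KO. Psmb6 was 312, 242 and 265 CPM in WT and 151 to 203 in Fyn-KO. Psmb7 was 48.6, 53.9 and 29.5 CPM in WT and 128 to 150 in Fyn-KO. The 16 constitutive proteasome genes together held 2886 to 3323 CPM in WT and 2381 to 2998 in Fyn-KO. Of them, Psma7 was higher (177, 247 and 79.4 CPM in WT, 367 to 564 CPM in Fyn-KO, edgeR adjusted p = 0.0189). Psme3, which forms another cap, was lower (317, 276 and 368 CPM in WT, 38.7 to 56.3 CPM in Fyn-KO, adjusted p = 0.0121). The other constitutive genes did not pass, and of all genes tested 19.0% were higher and 3.51% were lower. Psme1 over Psme3 was 0.651, 0.198 and 0.00205 in WT and 2.87 to 3.57 in Fyn-KO. Psme2 over Psme3 was 0.00469, 0.0499 and 0.341 in WT and 0.791 to 1.07 in Fyn-KO.

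**Figure D3:**
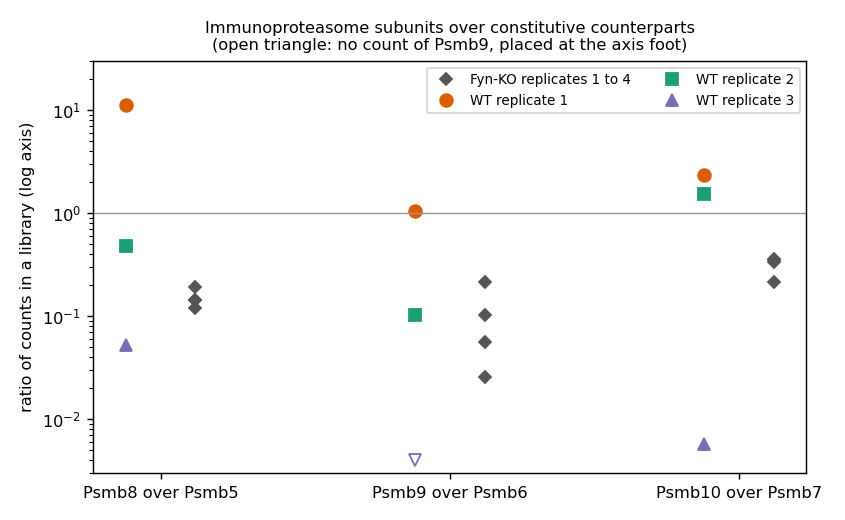
Ratio of the counts of each catalytic immunoproteasome subunit to those of its constitutive counterpart in each library, on a log axis. Coloured symbols are WT libraries and grey diamonds Fyn-KO libraries, and the open triangle marks the library with no count of Psmb9. For each pair WT replicate 1 is highest, WT replicate 3 is lowest and the Fyn-KO libraries lie between them.

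Levels of these genes varied more among WT than among Fyn-KO libraries. The median SD of log2(CPM + 1) over the 39 tested members was 2.08 in WT and 0.55 in Fyn-KO, against 1.88 and 0.49 over all genes tested. The SD was larger in WT for 33 of 39 members (84.6%) and for 72.0% of all genes. Of 34 members with a mean of at least 10 CPM in WT, 12 (35.3%) had 1 WT library at 4 or more times the next (41.9% of all such genes). That library was WT replicate 1 for Oas3, Zbp1, Irf8, Ifitm3, Slfn2, Psmb8 and Psmb9. It was WT replicate 2 for Ifit2, Mx2 and Ifih1, and WT replicate 3 for Eif2ak2 and Psme2. Of 37 members that reached 10 CPM in some WT library, 18 (48.6%) were under 1 CPM in another (64.8% of all such genes). In Fyn-KO this held for 1 of 30 members, Usp18 (4.81% of all such genes). The SD was thus larger in WT for a greater share of the members than of all genes, while on the counts of single high and of missing libraries the share of members was the smaller one.

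The summed level of the 42 members was 9272, 2840 and 2258 CPM in WT replicates 1, 2 and 3 and 1300 to 1570 in Fyn-KO. Of the 41 members with a count in WT, 22 were highest in WT replicate 1, 11 in WT replicate 2 and 8 in WT replicate 3. The shares over all genes tested were 35.6%, 35.3% and 29.1%. Members above all 4 Fyn-KO libraries numbered 25 of 42 in WT replicate 1, 26 in WT replicate 2 and 12 in WT replicate 3, and the shares over all genes tested were 25.03%, 34.3% and 25.3%. Members below all 4 numbered 6, 7 and 17, against 60.6%, 46.0% and 60.6% of all genes tested. In WT replicate 3, 22 of the 42 members were under 1 CPM, against 11 and 7 in the other WT libraries and 3 to 8 in Fyn-KO.

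**Figure D4:**
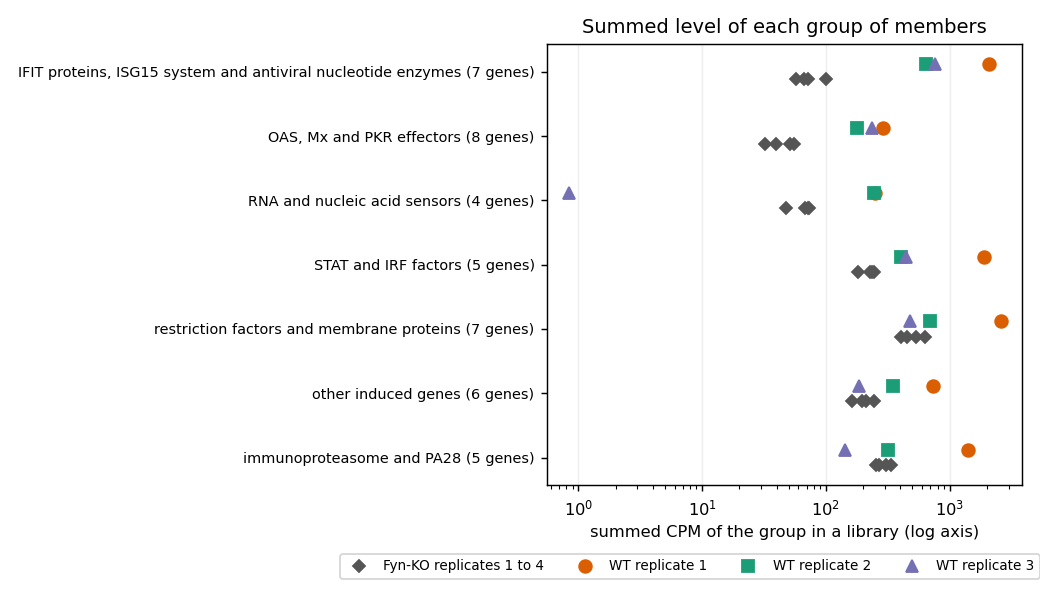
Summed CPM of the members of each role in each library, on a log axis. Grey diamonds are the Fyn-KO libraries and coloured symbols the WT libraries. All 3 WT libraries lie above the Fyn-KO libraries for the IFIT and ISG15 group and for the OAS, Mx and PKR group, and WT replicate 3 falls to 0.839 CPM for the sensors.

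Summed by role, the IFIT and ISG15 group was 2086, 651 and 765 CPM in WT and 57.5 to 100.2 in Fyn-KO. The OAS, Mx and PKR group was 290.3, 178 and 238 CPM in WT and 32.3 to 54.9 in Fyn-KO. These sums did not overlap between the groups. The STAT and IRF factors did not overlap either, at 1910.0, 403 and 444 CPM in WT and 181 to 246 in Fyn-KO. Taken singly, only Ifit1, Ifit3, Isg15, Usp18 and Oas1a of these members did not overlap, and each STAT and IRF factor did overlap. Different genes carried the sums, as Irf1 was at 1099 CPM in WT replicate 1 and 9.04 CPM in WT replicate 2. In the restriction factors, the other induced genes and the immunoproteasome the ranges of the groups overlapped.

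**Figure D5:**
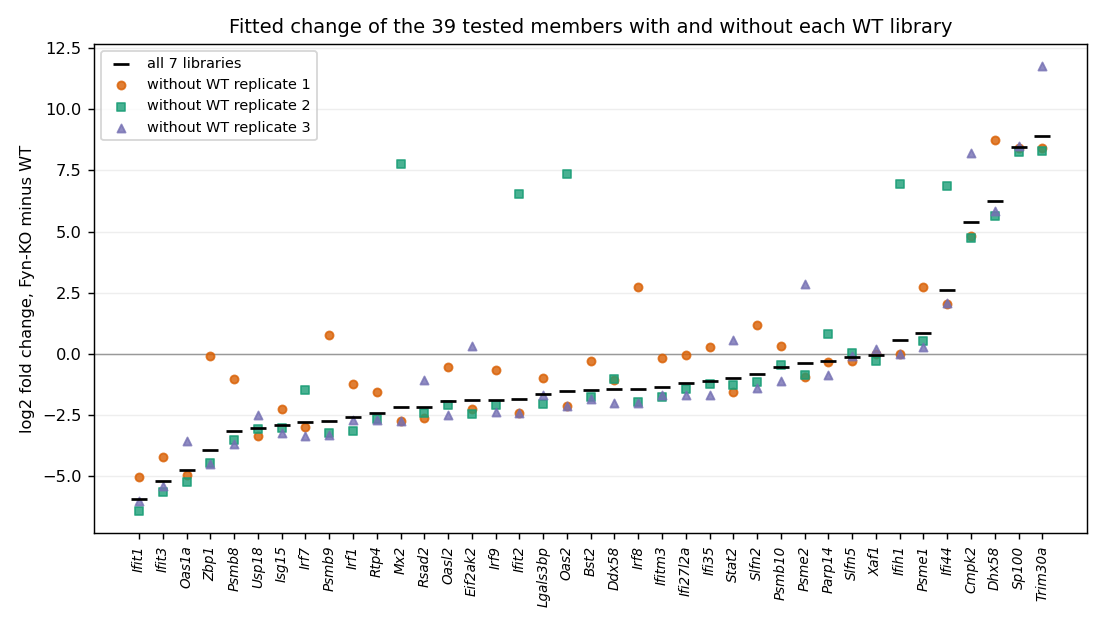
Fitted log2 fold change, Fyn-KO minus WT, of the 39 tested members with all 7 libraries (black bars) and without each WT library (coloured symbols), sorted by the value with all libraries. Ifit1 and Ifit3 stay far below 0 in each fit, whereas Mx2, Ifit2, Oas2 and Ifih1 move by over 6 when WT replicate 2 is left out.

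The other genes of the pathway were read from lists outside the 42. Of 21 interferon genes, 20 had no count in any library, and Ifnk was found in Fyn-KO replicate 3 alone at 3.50 CPM. Of the 10 tested genes for interferon receptors, JAK kinases and STATs, none passed (edgeR quasi-likelihood test). Jak1, for example, was 171, 60.5 and 422 CPM in WT and 371 to 521 in Fyn-KO (adjusted p = 0.554). Stat3 was 1369, 1066 and 212 CPM in WT and 223 to 397 in Fyn-KO (adjusted p = 0.0715). Of 6 feedback inhibitors, Ptpn2, a phosphatase acting on JAK kinases, was higher (3 counts in WT, 21.0 to 32.1 CPM in Fyn-KO, adjusted p = 0.0285), against 19.0% of all genes tested. Socs1, which inhibits JAK kinases after interferon gamma, was 145 CPM in WT replicate 1 and 0 in the other WT libraries, against 0 to 8.58 CPM in Fyn-KO.

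A second list of interferon-induced genes had 38 tested genes, of which 2 were lower in Fyn-KO (Tap1 and B2m) and 4 were higher (Ifi204, Trim34a, Ifitm1 and Ifitm2), with a median log2 fold change of -1.33. Of all genes tested, 3.51% were lower and 19.0% were higher, with a median of 0.45. Tap1, a peptide transporter for antigen presentation, was 723, 66.6 and 224 CPM in WT and 14.4 to 29.1 in Fyn-KO (edgeR adjusted p = 0.0126). B2m, the light chain of MHC class I, was 3819, 1437 and 1529 CPM in WT and 923 to 997 in Fyn-KO (adjusted p = 0.0316). Every WT library lay above every Fyn-KO library for both. Ifitm1 had no count in WT and was 30.01 to 45.2 CPM in Fyn-KO (adjusted p = 0.0121), and its relative Ifitm3 overlapped between the groups as given above. Igtp, a GTPase induced by interferon gamma, was 2547, 219 and 0.168 CPM in WT and 9.38 to 29.2 in Fyn-KO (adjusted p = 0.0717).

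Markers of immune cells were read beside the members. The 16 microglia and macrophage markers summed to 585, 217 and 674 CPM in WT and 454 to 506 in Fyn-KO. Of 15 tested, 5 were higher in Fyn-KO (Cx3cr1, Tmem119, Tyrobp, Laptm5 and Trem2), against 19.0% of all genes tested. Another 7 had a negative log2 fold change and did not pass (Aif1, Csf1r, C1qb, Itgam, Cd68, Adgre1 and Fcer1g). P2ry12 was at 0 in every WT library and at 2.88, 0, 0 and 0 CPM in Fyn-KO replicates 1 to 4. The 10 markers of T and NK cells found in the table summed to at most 0.168 CPM in WT and 10.6 in Fyn-KO, with Cd3e, Cd8a and Ncr1 at 0 in all libraries. The 5 markers of B and plasma cells summed to at most 5.48 CPM, with Cd79a at 0 in all libraries. Monocyte, neutrophil and dendritic cell markers summed to 0.470 to 37.3 CPM in WT and 7.12 to 29.6 in Fyn-KO. Endothelial and pericyte markers summed to 1.10, 20.04 and 1181 CPM in WT and 424 to 483 in Fyn-KO. Their part in the levels of the members was not tested.

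RefSeq promoters from 250 bases before to 50 bases after the start site were found for 33 of the 42 members. Dhx58, Ifi27l2a, Mx1, Mx2, Oas2, Parp14, Rtp4, Usp18 and Zbp1 had none in the table used. An ISRE match on either strand was found for 15 of the 33 members (45.5%) and for 1079 of 27025 genes (3.99%), a gene counting when any of its promoters matched. Within the 250 bases before the start site, the members with a match were Bst2, Ifit1, Ifit3, Isg15, Oas1a, Oas3, Rsad2, Slfn5, Stat2 and Trim30a. All 4 lower members with a promoter in the table, Ifit1, Ifit3, Isg15 and Oas1a, had a match. The median log2 fold change was -1.47 over the 14 tested members with a match and -1.44 over the 17 without. The matches of Ifit1 began 104 and 85 bases before the start site, those of Ifit3 156 and 122 bases before it, and the first of Isg15 and Oas1a 78 and 20 bases before it.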

How the data were processed

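RNA of sorted tdTomato-positive cells from 3 WT and 4 Fyn-KO mice was read as 3′ tags. The authors deposited 1 table of counts per gene, described as modified; the change made, the annotation and the strand of counting are not stated in the material used. Per the submitters' processing notes, Bowtie2, bedtools and DESeq2 1.32.0 were used with mm10. The column of WT replicate 3 could be tied to the WT group but not to a single sample, and serves as a WT library.

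Counts were filtered with filterByExpr (at least 10 in enough libraries and 15 in all), scaled by TMM and tested by the two-sided edgeR 4.0.16 quasi-likelihood test (R 4.3.3) over 13122 genes, with a Benjamini-Hochberg adjusted p under 0.05 as threshold. The same test gave every adjusted p in the text unless another is named. A gene could enter the test through 1 group alone, as genes without WT counts did through Fyn-KO. The SE is approximate, the size of the log2 fold change divided by the root of its F value. For single genes a two-sided exact permutation test of log2(CPM + 1) was run over 35 assignments of the libraries; its smallest possible p is 0.0286, which all 7 called members and Lgals3bp reached. CPM are counts per 1000000 of the library total. A group with no count was set to 3 counts per library, and with 1 to 3 counts a 95% exact interval is given; both cover counting error only, since tags carry no molecular identifiers. The spread among these 7 libraries is all that the p-values measure.

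The 42 members and all other lists were chosen with earlier results of these data known. Values per library were given for members past the threshold with all libraries or without 1 WT library, and for up to 4 members per role by mean CPM. Of the other lists, values were given for only some of the genes past the threshold or high in mean CPM. Ifit3b was chosen after its values were seen. Gene positions are from GENCODE M21 (GRCm38). As alternatives, each library was left out in turn, TMM was replaced by RLE or by plain library sizes, the filter was dropped or raised to 50 counts, and only genes detected in both groups (10 counts in 2 WT and in 3 Fyn-KO libraries) were kept. DESeq2 1.42.0, voom of limma 3.58.1 with quality weights and a replicate block were also run.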

Additional observations from a re-analysis of the deposited data

Results flagged for a closer look

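Within the 4 Fyn-KO libraries, 40 members were searched for a library far from the rest (Dixon's test at the 95% level, by which chance marks about 1 group in 20), and 3 showed one. Oasl1, an OAS-like antiviral protein, was at 2.40 CPM in Fyn-KO replicate 2 and had no count in the other Fyn-KO libraries. With the others all at 0 the test marks any value above 0, so the rate of 1 in 20 does not hold for Oasl1. Ifih1, the sensor MDA5, was at 31.3 CPM in Fyn-KO replicate 1, against 14.6 to 17.3 CPM in the others. Psmb10, an immunoproteasome subunit, was at 32.3 CPM in Fyn-KO replicate 1, below the 44.3 to 46.3 CPM of the others. The WT group, with 3 libraries, was too small for this search.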

How the results depend on the processing

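The number of higher members was 2 with all libraries, 2 under RLE factors, library sizes alone and no filter, 1 with a minimum count of 50, 4 with DESeq2, 0 with limma-voom and 0 among genes detected in both groups, and ran from 2 to 4 with 1 library left out. Trim30a and Sp100 were not among the genes detected in both groups, so that setting could not call them. The number of lower members was 5 with all libraries and under the other scalings and filters, 7 with DESeq2, 1 with limma-voom and 1 among genes detected in both groups, and ran from 2 to 10 with 1 library left out. Among all 6446 genes detected in both groups, 52 were higher and 146 were lower. No share over all genes was worked out for the other scalings, the filters on low counts, DESeq2, limma-voom or the replicate block. For higher genes with 1 library left out it was worked out only without WT replicate 2. Counts without a share cannot be set against all genes. The median log2 fold change was -0.28 with limma-voom and ran from -1.79 to -0.61 with 1 library left out, the weakest value being without WT replicate 1. Members not overlapping in CPM ran from 2 to 4 above and from 7 to 16 below WT with 1 library left out. Members with 1 WT library far above the next numbered 27 at 2-fold, 7 at 10-fold and 4 with a minimum mean of 50 CPM. Their shares over all genes were not worked out. With 1 mismatch allowed, the ISRE matched 27 and the GAS 30 members (38.9% and 74.2% of all genes). The cause of these changes was not tested, and some of these settings also held fewer libraries or genes.

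With the replicate block, 0 members were higher and 2 lower, and the median was -0.14. The series design describes independently sorted mice, and the libraries were not treated as paired. Deviations of WT and Fyn-KO libraries of the same number correlated at -0.0135, -0.0047 and -0.0227. Such values cannot show how the libraries were made. Among the members checked singly, the block turned the sign of Mx2 (0.65), Irf8 (1.75), Parp14 (0.76), Ifi35 (0.20) and Psmb10 (0.35), none of them past the threshold. Ifit2, Usp18, Cmpk2, Oas2, Slfn2, Xaf1 and Psme2 were tested but not checked singly under the block, so this list may be incomplete.

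Under limma-voom the sign turned for Oasl2 (0.071), Eif2ak2 (2.65), Irf1 (1.05), Irf8 (1.77), Parp14 (1.25), Ifi35 (1.10), Psmb9 (1.15) and Psmb10 (1.28), and among genes detected in both groups for Slfn5 (0.16). Ifit2, Usp18, Cmpk2, Oas2, Slfn2, Xaf1 and Psme2 were not checked singly in these 2 settings either. With 1 library left out the log2 fold change ran across 0 for Mx2 (-2.77 to 7.77), Eif2ak2 (-2.48 to 0.30), Ifih1 (-0.0082 to 6.94), Stat2 (-1.56 to 0.55), Irf8 (-2.03 to 2.72), Slfn5 (-0.32 to 0.035), Parp14 (-0.87 to 0.81), Ifi35 (-1.69 to 0.26), Psmb9 (-3.52 to 0.76) and Psmb10 (-1.14 to 0.29). It also did so for Ifit2 (-2.44 to 6.54), Oas2 (-2.13 to 7.34), Slfn2 (-1.42 to 1.15), Xaf1 (-0.31 to 0.24) and Psme2 (-0.96 to 2.85). None of these 15 passed the threshold with all libraries.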

Other observations

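The GAS, read as TTCNNNGAA on both strands, was matched in the promoters of 9 of the 33 members with a RefSeq promoter (27.3%) and of 9.55% of all genes. The 9 were Bst2, Eif2ak2, Ifi35, Ifit2, Ifitm3, Irf1, Irf8, Oas1a and Psmb8. Matches to this motif and to the ISRE can share bases, and Oas1a, Bst2, Eif2ak2 and Ifitm3 had both. Bst2, Ifi35, Irf1, Irf8, Ifitm3 and Psmb8 were highest in WT replicate 1, Ifit2 in WT replicate 2, and Oas1a and Eif2ak2 in WT replicate 3.

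Of 5 tested astrocyte markers, 2 were lower in Fyn-KO (Slc1a2 and S100b), and of 4 tested neuron markers 1 was lower (Map2). Of all genes tested, 3.51% were lower. Gfap, Slc1a3, Rbfox3, Tubb3 and Syt1 had negative log2 fold changes and did not pass. Aldh1l1 went the other way (1.75, edgeR adjusted p = 0.657). Slc1a2 was 879, 226 and 279 CPM in WT and 0 to 21.2 in Fyn-KO (adjusted p = 0.0452). S100b was 2589, 1348 and 1428 CPM in WT and 14.8 to 94.0 in Fyn-KO, and Map2 was 275, 332 and 466 CPM in WT and 10.55 to 48.4 in Fyn-KO (edgeR adjusted p = 0.0121 for each).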
